A study of Homo sapiens with 8 samples.

Results

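The S100 genes encode small proteins that bind calcium through a pair of EF-hand motifs. The 8 genes described here, S100A4, S100A6, S100A8, S100A9, S100A10, S100A11, S100A12 and S100A13, were taken from the deposited expression table by their symbols alone and are 8 of its 60664 genes. RNA was sequenced from THP-1, a line established from a human acute monocytic leukemia, and from a DAC-resistant line derived from it. DAC (decitabine) is a cytidine analogue that is built into DNA and lowers its methylation. There were 4 groups of 2 biological replicates: parental cells with DMSO (the solvent control), parental cells with 1 µM DAC, DAC-resistant cells with DMSO and DAC-resistant cells with 1 µM DAC. Treatment lasted 6 days in every group, all cells grew in the same serum-containing medium, and all 8 libraries carry the genotype label WT. Per the methods of the study, the DAC-resistant line was selected by repeated pulses of DAC and then kept free of drug, and the sources used here do not say whether it is a single clone. It is 1 resistant line, so a difference from the parental cells is a difference between these 2 lines.

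S100 proteins work as dimers that change shape when calcium binds and then take hold of target proteins. S100A8 and S100A9 pair to form calprotectin, an abundant cytosolic protein of neutrophils and monocytes that is released at sites of inflammation, binds zinc and manganese and signals through TLR4 and the receptor RAGE (encoded by AGER). S100A12 is a close relative made by the same cells and is also a RAGE ligand. S100A4 binds nonmuscle myosin IIA, S100A6 binds the ubiquitin ligase component CACYBP, S100A10 holds annexin A2 at the membrane, S100A11 binds annexin A1, and S100A13 takes part in the release of proteins that lack a signal peptide. In myeloid cells the calprotectin genes are known as maturation genes, low in progenitors and high in monocytes and granulocytes.

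All 8 genes lie on the long arm of chromosome 1 (GRCh38 coordinates of the GENCODE 44 annotation). In the order of the chromosome, S100A10 (ENSG00000197747) spans chr1:151982915-151993859 and S100A11 (ENSG00000163191) spans chr1:152032506-152047907, both on the minus strand. After a gap of 1309.95 kb follow S100A9 (ENSG00000163220), which at chr1:153357854-153361023 is the only member on the plus strand, S100A12 (ENSG00000163221, chr1:153373711-153375621, minus strand) and S100A8 (ENSG00000143546, chr1:153390032-153391073, minus strand). These 3 genes are next to each other in the set, with 12.7 kb between S100A9 and S100A12 and 14.4 kb between S100A12 and S100A8. A further 144 kb lie between S100A8 and S100A6 (ENSG00000197956, chr1:153534599-153536244, minus strand), which is followed by S100A4 (ENSG00000196154, chr1:153543613-153550136, minus strand) and S100A13 (ENSG00000189171, chr1:153618787-153631360, minus strand). S100A13 shares 536 of its 2216 exon bases with a long noncoding RNA on the same strand (ENSG00000271853) and 235 with S100A1 on the opposite strand, so its value is uncertain to that extent.

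The promoters of the 3 neighbouring genes S100A9, S100A12 and S100A8, which had the largest DAC differences of the 8 in parental cells, are shown beside that of S100A6, which had a small one, because DNA methylation, which DAC lowers, sits on the cytosines of CpG dinucleotides. Each line gives the 250 bases before a transcription start site from RefSeq (assembly GRCh38.p14), read 5′ to 3′ on the strand of the gene, and capitals mark each CpG. The windows are chr1:153357604-153357853 on the plus strand for S100A9, chr1:153375622-153375871 on the minus strand for S100A12, chr1:153391074-153391323 on the minus strand for S100A8, and chr1:153535992-153536241 on the minus strand for S100A6.
S100A9: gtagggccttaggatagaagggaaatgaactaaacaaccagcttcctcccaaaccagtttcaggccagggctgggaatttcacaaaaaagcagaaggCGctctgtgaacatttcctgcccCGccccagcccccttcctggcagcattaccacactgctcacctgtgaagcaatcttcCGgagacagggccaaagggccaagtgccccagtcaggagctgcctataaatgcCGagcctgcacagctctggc
S100A12: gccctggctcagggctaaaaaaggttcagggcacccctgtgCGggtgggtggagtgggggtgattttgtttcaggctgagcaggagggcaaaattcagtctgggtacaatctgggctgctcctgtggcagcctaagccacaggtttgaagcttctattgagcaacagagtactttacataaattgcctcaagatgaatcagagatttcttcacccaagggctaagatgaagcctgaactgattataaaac
S100A8: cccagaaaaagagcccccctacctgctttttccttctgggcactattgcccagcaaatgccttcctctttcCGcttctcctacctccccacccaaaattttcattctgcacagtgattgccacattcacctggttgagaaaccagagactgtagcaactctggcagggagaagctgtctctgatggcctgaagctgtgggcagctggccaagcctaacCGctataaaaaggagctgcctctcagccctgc
S100A6: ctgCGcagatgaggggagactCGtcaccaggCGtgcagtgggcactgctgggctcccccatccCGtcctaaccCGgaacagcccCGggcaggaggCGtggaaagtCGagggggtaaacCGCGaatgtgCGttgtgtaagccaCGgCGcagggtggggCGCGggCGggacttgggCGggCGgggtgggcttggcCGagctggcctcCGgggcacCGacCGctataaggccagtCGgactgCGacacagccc

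There were 4 CpGs in the S100A9 window, 1 in that of S100A12, 2 in that of S100A8 and 24 in that of S100A6. Over 34943 RefSeq promoter windows of this length the median was 11 CpGs. Windows with as few CpGs or fewer made up 34.4% of these for S100A9, 14.7% for S100A12, 22.9% for S100A8 and 78.4% for S100A6. Of the other members, S100A10 had 24 CpGs, S100A11 had 15 and S100A4 had 7, and the 3 windows of S100A13 had 15, 10 and 8. RefSeq gives S100A8 2 other windows besides the one shown, each with 2 CpGs. The letters TTNNGNAA, a loose form of the C/EBP motif searched on both strands (TTNCNNAA on the other), occurred in the windows of S100A9 (1 match), S100A12 (2), S100A6 (1) and S100A11 (2), in those of S100A8 (1 in the window shown, 0 and 2 in the others) and in 1 of the 3 of S100A13. It was not in those of S100A4 and S100A10, and 33.2% of all windows held it. DNA methylation and factor binding were not measured in these libraries, and these counts describe the sequence only.

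Library totals for scaling, inferred here from the deposited values and exon lengths, ran from 27480502 to 31916835 reads, lowest in the parental cells with DAC. All 64 values of the 8 genes were whole reads, within 0.01 of a read, once the deposited FPKM (reads scaled by exon length and library total) were turned back into reads. The monocytic label was checked on 12 markers, of which 11 passed the filter on low values and FCN1 did not. Their summed level was 227 to 228 FPKM in parental cells with DMSO, 383 to 392 with DAC, and 148 to 155 in the 4 libraries of DAC-resistant cells. Markers of T cells summed to at most 0.549 FPKM in any library and those of keratinocytes and epithelium, tissues that also make S100 proteins, to at most 0.184 FPKM. Those of B and plasma cells summed to 5.00 to 7.85 FPKM over the libraries. Erythroid markers summed to at most 2.97 FPKM, in a DAC-resistant library with DMSO.

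In parental cells all 8 means were higher with DAC than with DMSO, and S100A8, S100A9 and S100A13 rose by more than 1 on the log2 scale, as did the values of S100A12. In DAC-resistant cells no member was called, and the calprotectin transcripts lay far under their parental level with either treatment. Here a gene is called where its p from limma, before adjustment, was 0.01 or less and log2(FPKM + 1) differed by at least 1. This scale understates the change of genes near or under 1 FPKM, so mean levels and reads stand beside it. From under 1 FPKM a gene cannot fall by enough for a call. All 8 genes passed the filter of at least 1 FPKM in at least 2 libraries, S100A12 only through its level in parental cells with DAC, so its values are given as a description and it is left out of counts of members called higher or lower and of medians, unless said otherwise. The plot of every library shows the 8 genes side by side.

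**Figure D1:**
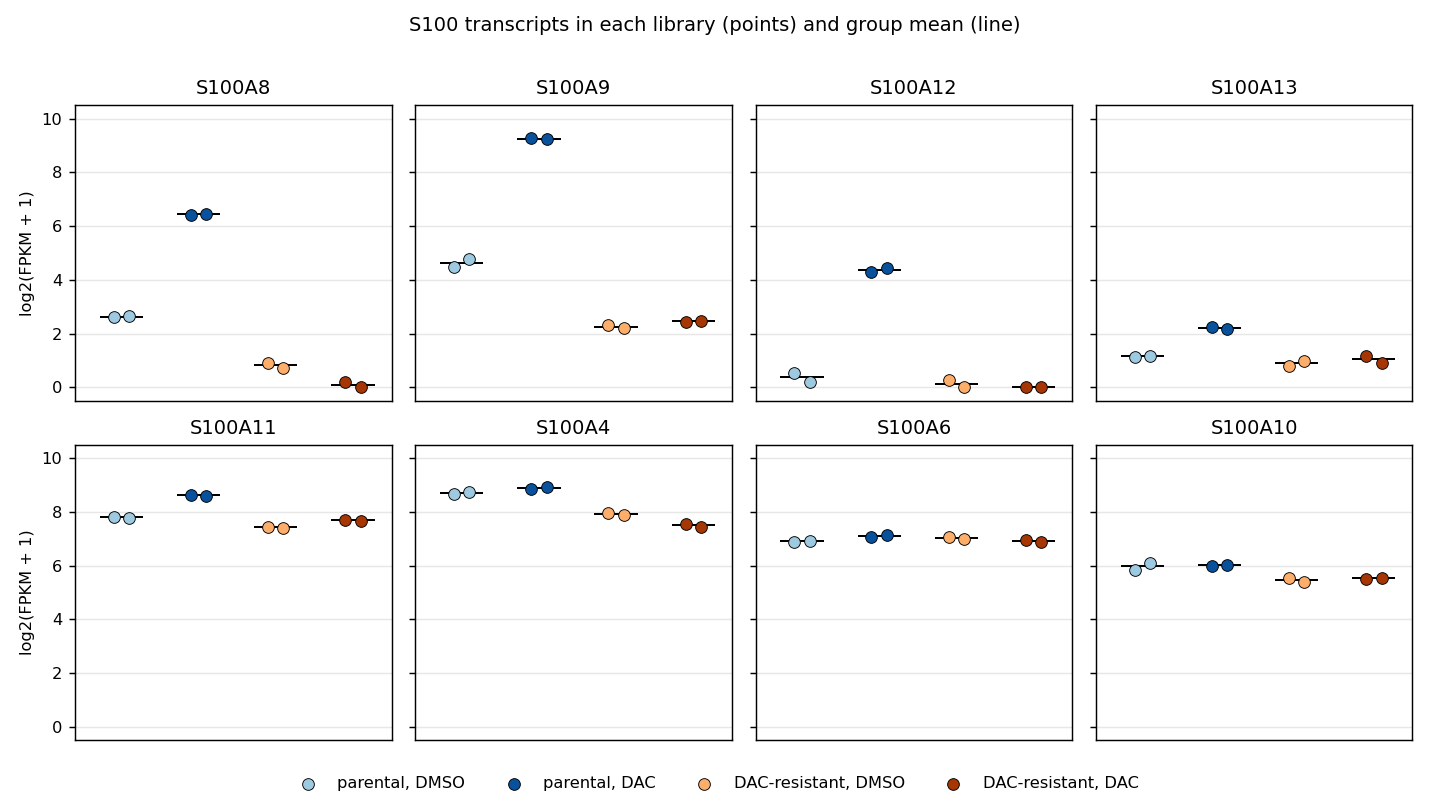
Level of each S100 transcript as log2(FPKM + 1) on the vertical axis, with 1 point per library and a line at the mean of each group of 2. S100A8, S100A9 and S100A12 stand highest in the parental cells with DAC (dark blue), and S100A8 and S100A9 stand lowest in the DAC-resistant cells (orange and brown). S100A6 differs little between groups, and S100A10 is lower in the DAC-resistant cells by less than 1.

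S100A9, the larger subunit of calprotectin, had the largest difference of the 8 in parental cells on the log2(FPKM + 1) scale, although S100A12, from under 1 FPKM, had the larger ratio of means. It was at 21.1 and 26.6 FPKM with DMSO and at 619 and 600.5 FPKM with DAC. The groups did not overlap, where those of 79.4% of all genes tested did not. The ratio of the means (23.8 ± 3.90 and 609.7 ± 13 FPKM, SD, n = 2 each) was 25.6-fold. On the log2 scale it rose by 4.63 (SE 0.10, adjusted p = 2.6e-07, limma with Benjamini-Hochberg adjustment over 14899 genes). Among 19942 protein-coding genes it moved from ranks 1795 and 1356 with DMSO to ranks 25 and 28 with DAC. In parental cells with DAC it thus had the highest level per length of the 8 members.

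S100A8, its partner, was at 5.06 and 5.22 FPKM with DMSO and at 84.9 and 86.0 FPKM with DAC in parental cells. The ratio of the means was 16.6-fold and the log2 difference 3.82 (SE 0.09, adjusted p = 4.1e-07, limma). Because S100A9 was higher than S100A8 in every library, the FPKM ratio of the pair was 4.16 and 5.10 with DMSO and 7.29 and 6.98 with DAC. The DAC libraries thus lay above the DMSO libraries in this ratio, which was not tested.

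S100A12, which lies between the other two on the chromosome, was close to the limit of detection without DAC. In parental cells it was at 0.455 and 0.136 FPKM (7 and 2 reads) with DMSO and at 18.7 and 20.9 FPKM (249 and 279 reads) with DAC. From 9 and 528 reads in all, the level was 66.2-fold higher with DAC. This ratio is a description, because the gene passed the filter only through its parental DAC libraries. The difference in log2(FPKM + 1) was 4.01.

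S100A13, a broadly expressed member, was called at a far lower level. It was at 1.21 and 1.24 FPKM with DMSO and at 3.71 and 3.48 FPKM with DAC in parental cells, a ratio of means of 2.94-fold. Its log2 difference was 1.05 (SE 0.12, adjusted p = 0.00035, limma), close to the threshold of 1. It fell under that threshold with quantile normalization (0.98) and with upper-quartile scaling (0.97).

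Without S100A12, 3 of 7 members were called higher with DAC in parental cells, where 6.66% of all genes tested were. At an adjusted p under 0.05 with no limit on size, 6 of these 7 were higher and none lower, where 33.6% of all genes were higher. The median log2 difference was 0.82 over the 7 members and 0.06 over all genes tested.

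S100A11, the annexin A1 partner, was at 220.1 and 219.8 FPKM with DMSO and at 392 and 388 FPKM with DAC in parental cells. It rose by 0.82 on the log2 scale (SE 0.02, adjusted p = 1.0e-06, limma), short of the size a call needed, except with quantile normalization (1.12). S100A4, the most abundant member in parental cells with DMSO, was at 405 and 430.1 FPKM with DMSO and at 458 and 486 FPKM with DAC. Its log2 difference was 0.18 (adjusted p = 0.025, limma), but from 0.06 with upper-quartile scaling (adjusted p = 0.33) to 0.68 with quantile normalization.

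S100A6, also known as calcyclin, was at 118 and 121 FPKM with DMSO and at 134 and 139 FPKM with DAC in parental cells. The log2 difference was 0.19 (adjusted p = 0.0034, limma), and 0.07 with upper-quartile scaling (adjusted p = 0.094). S100A10, which holds annexin A2 but has lost the ability to bind calcium, was at 56.3 and 67.6 FPKM with DMSO and at 62.1 and 64.3 FPKM with DAC. Its groups overlapped, with a log2 difference of 0.03 (95% interval -0.18 to 0.25, adjusted p = 0.76, limma), and the sign turned with upper-quartile scaling (-0.08).

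**Figure D2:**
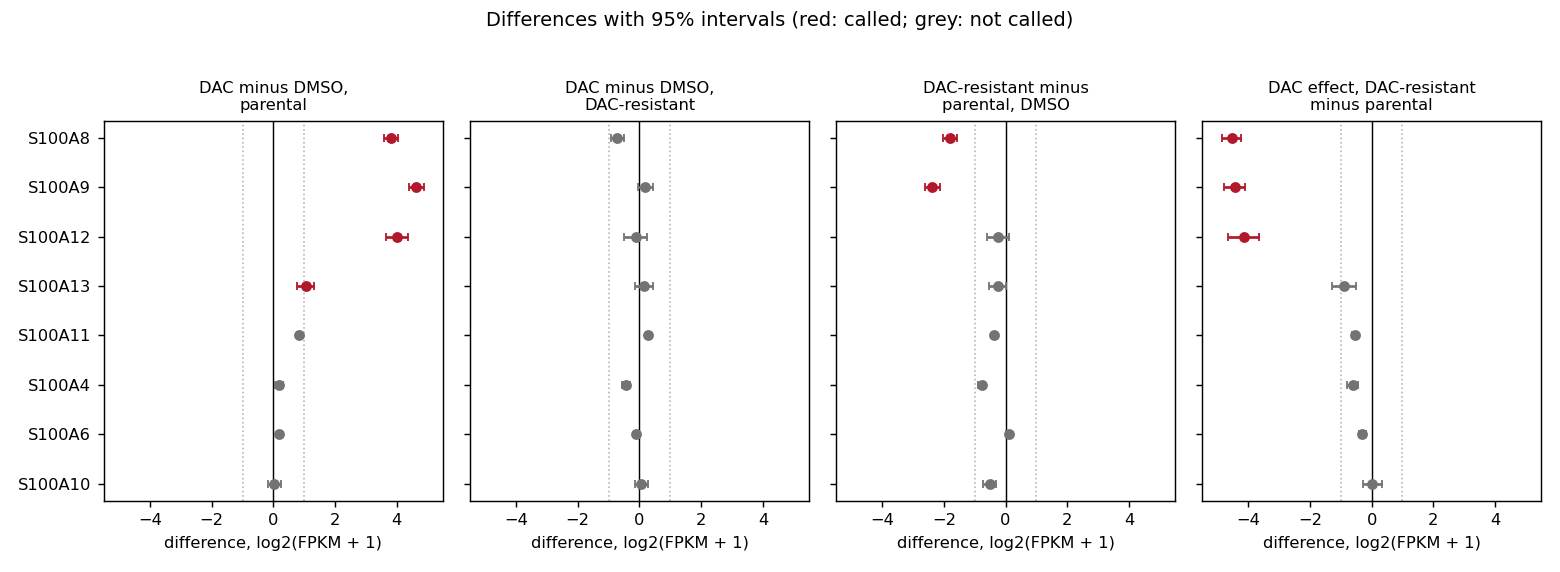
Difference of each S100 transcript in log2(FPKM + 1), as points with 95% intervals from limma, for DAC in parental cells, DAC in DAC-resistant cells, the lines compared without DAC, and the interaction. Dotted lines mark a difference of 1 in size; red points are past the call thresholds and grey points are not, and S100A8 and S100A9 leave the dotted band in parental cells but not in DAC-resistant cells (S100A12 is drawn as a description).

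In DAC-resistant cells treated with DAC, S100A9 stayed at 3.98 and 3.60 FPKM with DMSO and 4.37 and 4.56 FPKM with DAC. The replicates lay apart by little, where those of 56.3% of all genes tested lay apart. The log2 difference was 0.19 (95% interval -0.05 to 0.43, adjusted p = 0.28, limma). From 134 and 160 reads the ratio of DAC to DMSO was 1.18 (95% interval 0.929 to 1.49, counting error only). A rise of the size seen in parental cells was outside that interval.

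S100A8 moved the other way in DAC-resistant cells. It was at 0.889 and 0.635 FPKM (25 and 17 reads) with DMSO and at 0.141 and 0 FPKM (4 and 0 reads) with DAC. The log2 difference was -0.72 (SE 0.09, adjusted p = 0.0067, limma), and from the reads the DMSO level was 10.7-fold that with DAC (95% interval 3.87 to 40.9, counting error only). At so few reads the scale decides whether a call is reached. The log2 difference was -1.58 after rescaling to TPM, -2.46 with 0.1 in place of 1 added to the FPKM and -3.82 with voom on recovered reads, each past the threshold.

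S100A12 had 3 and 0 reads in the DAC-resistant libraries with DMSO and 0 in both with DAC, which is at the limit of 3 reads per library under which a transcript is not read as absent. S100A13 was at 0.743 and 0.991 FPKM with DMSO and at 1.26 and 0.884 FPKM with DAC, and these replicates overlapped. Its log2 difference was 0.15 (95% interval -0.13 to 0.43, adjusted p = 0.49, limma).

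Of the abundant members, S100A11 rose in DAC-resistant cells too, from 172 and 167 FPKM with DMSO to 208 and 202 FPKM with DAC (log2 difference 0.27, adjusted p = 0.0023, limma). S100A4 fell from 249 and 237 FPKM to 187 and 173 FPKM (log2 difference -0.43, adjusted p = 0.0061, limma). The remaining pair did not pass the test: S100A6 was at 132 and 126 FPKM with DMSO and 122 and 117 FPKM with DAC (-0.11, adjusted p = 0.10), and S100A10 was at 45.2 and 40.7 FPKM with DMSO and 43.9 and 45.8 FPKM with DAC (0.06, adjusted p = 0.72, limma). None of the 8 members was called with DAC in DAC-resistant cells in the main fit by limma, where 0.235% of all genes were called in either direction. For S100A8, S100A12 and S100A13, all under 1 FPKM with DMSO in these cells, even a fall to 0 could not reach a call on this scale. With the smaller pseudocount, with TPM and with voom S100A8 was called. At an unadjusted p under 0.05 there were 4 members (S100A4, S100A6, S100A8 and S100A11), where 27% of all genes were, and at an adjusted p under 0.05 there were 3, where 11.2% of all genes were. Of these 3, S100A4 and S100A8 each missed an adjusted p of 0.05 under at least 1 alternative, and S100A11 did not.

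The difference between the DAC effects of the lines was tested as an interaction. It was called for S100A8 (-4.53, SE 0.13, adjusted p = 1.7e-06) and S100A9 (-4.44, SE 0.14, adjusted p = 2.6e-06, limma), and S100A12 had a value of -4.14. The DAC effect in DAC-resistant cells was smaller than in parental cells for S100A9 (0.19) and of the opposite sign for S100A8 (-0.72). Without S100A12, 2 of 7 members were called, where 7.16% of all genes tested were called with a lower DAC effect in DAC-resistant cells. With no limit on size, 6 of the 7 passed an adjusted p of 0.05, where 28.4% of all genes were lower. S100A13 had -0.90 (adjusted p = 0.0044), S100A4 -0.61 (0.00078), S100A11 -0.55 (4.5e-05) and S100A6 -0.30 (0.0028, limma). Over the alternatives S100A13 ran from -1.25 to -0.77 and S100A4 from -1.14 to -0.50, each past the size for a call under at least 1. S100A11 ran from -0.85 to -0.44 and S100A6 from -0.59 to -0.19. S100A10 did not pass (0.03, 95% interval -0.27 to 0.33). For S100A4 the effects have opposite signs in the lines, although its rise in parental cells depends on the scaling.

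Before any DAC in the experiment, the DAC-resistant line already had less calprotectin transcript. With DMSO, S100A9 was at 21.1 and 26.6 FPKM in parental cells and at 3.98 and 3.60 FPKM in DAC-resistant cells, a mean that was 6.29-fold lower. S100A8 was at 5.06 and 5.22 FPKM in parental cells and at 0.889 and 0.635 FPKM in DAC-resistant cells, 6.75-fold lower. Neither pair of groups overlapped, where those of 78.6% of all genes tested did not. Both genes were called lower, S100A9 with a log2 difference of -2.37 (SE 0.10, adjusted p = 5.4e-06) and S100A8 with -1.80 (SE 0.09, adjusted p = 1.1e-05, limma). These 2 were the called members of the 7, where 4.28% of all genes were called lower. This comparison and that of DAC in parental cells use the same parental DMSO libraries, so their values are not independent.

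The abundant members differed less with DMSO. S100A4 was 1.72-fold lower in DAC-resistant cells (417 ± 18.0 and 243 ± 8.21 FPKM, SD, n = 2 each), with a log2 difference of -0.78 (adjusted p = 3.8e-05, limma). S100A10 had -0.51 (adjusted p = 0.0026) and S100A11 -0.37 (adjusted p = 3.3e-05, limma). Neither had overlap between groups, where 78.6% of all genes tested had none. S100A6 was the only member with a higher mean in DAC-resistant cells (0.11, adjusted p = 0.032, limma), but the difference was 0.01 with upper-quartile scaling (adjusted p = 0.76). S100A13 had -0.25 (adjusted p = 0.10, limma). S100A12 had 9 reads in parental and 3 in DAC-resistant cells, a ratio of 2.98 (95% interval 0.744 to 17.1, counting error only). At an adjusted p under 0.05, 5 members were lower, where 26.2% of all genes were. The median over the 7 without S100A12 was -0.51, where that of all genes was 0.02.

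With DAC in both lines the gap was wider. S100A9 was at 619 and 600.5 FPKM in parental and at 4.37 and 4.56 FPKM in DAC-resistant cells, 137-fold lower (log2 difference -6.80, adjusted p = 8.3e-08, limma). S100A8 summed to 4187 reads in the parental and 4 in the DAC-resistant libraries (log2 difference -6.34, adjusted p = 8.3e-08, limma). S100A12, at 0 in both DAC-resistant libraries, was at least 98.1-fold lower when 3 reads per library are taken as the floor. S100A4 was 2.62-fold lower (-1.38, adjusted p = 1.8e-06) and S100A13 3.36-fold lower (-1.16, adjusted p = 0.00015, limma). Without S100A12, 4 of 7 members were called lower with DAC, where 9.17% of all genes were. All 7 were lower at an adjusted p under 0.05, where 35.1% of all genes were. S100A11 (-0.92), S100A10 (-0.49) and S100A6 (-0.19) did not reach the size for a call. Over the alternatives S100A11 ran from -1.22 to -0.80, so it passed that size under at least 1 of them. S100A6 ran from -0.50 to -0.06, and with TPM scaling it did not pass (-0.06, adjusted p = 0.22).

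Monocytic markers moved in the same comparisons as the S100 genes. Of the 11 monocytic markers tested, VCAN and CD68 passed the filter only with their parental DAC libraries, so they are left out of these counts. Of the other 9, LYZ, CD14 and MNDA were called higher with DAC in parental cells, where 6.66% of all genes were. In DAC-resistant against parental cells with DMSO, 3 were called lower (LYZ, CD33 and ITGAM), where 4.28% of all genes were. At an adjusted p under 0.05 and with no limit on size, 8 of the 9 markers were higher with DAC in parental cells, where 33.6% of all genes were, and 1 was lower (median 0.79, where that of all genes was 0.06). With DAC in both lines all 9 were lower in DAC-resistant cells, where 35.1% of all genes were (median -1.51, where that of all genes was -0.03). The complement genes C1QA and C1QB, markers of macrophages, reached 16.7 and 15.3 FPKM (C1QA) and 10.1 and 9.66 FPKM (C1QB) in parental cells with DAC, without which they would not have passed the filter, and were listed at 0 in every DAC-resistant library. The macrophage list summed to 1.20 to 1.26 FPKM in parental cells with DMSO, 26.5 to 28.6 with DAC and at most 0.170 in DAC-resistant cells, while its members CD163, MRC1, MARCO and MSR1 were under 1 FPKM throughout. The neutrophil and granule genes, 7 of 10 tested, summed to 560 to 589 FPKM in parental cells with DMSO, 449 to 450 with DAC, and 613 to 663 over the DAC-resistant libraries. CTSG had a large part in this, with means of 105 and 277 FPKM in parental and DAC-resistant cells with DMSO. AZU1 ran the other way, with means of 248 and 144 FPKM (log2 difference -0.78, adjusted p = 1.3e-05, limma). At an adjusted p under 0.05, 2 of these genes were higher in DAC-resistant cells with DMSO and 2 lower, where 26.2% of all genes were lower. Between the lines with DMSO, CTSG was called higher. CSF3R was called lower, where 4.28% of all genes were called lower. With DAC in parental cells CTSG was called lower and MPO higher, where 6.66% of all genes were called higher. LTF, CEACAM8 and MMP8 were under 1 FPKM in every library. The part of these transcripts in the S100 differences was not tested. In RNA from whole cultures, fewer cells with a transcript and less of it per cell cannot be told apart.

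The makeup of the S100 transcripts changed accordingly. Summed over the 8 genes, the level in parental cells was 827 and 872 FPKM with DMSO and 1772 and 1788 FPKM with DAC, and in DAC-resistant cells 604 and 576 with DMSO and 567 and 544 with DAC. S100A8, S100A9 and S100A12 together made up 3.22% and 3.67% of this sum without DAC and 40.8% and 39.6% with it in parental cells. In DAC-resistant cells they made up 0.735% to 0.839% whatever the treatment. S100A4 held 49.0% and 49.3% without DAC and 25.9% and 27.2% with it in parental cells. The plot of the stacked levels shows that most of the gain with DAC was S100A9.

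Ordered by FPKM, which is per length, the parental cells with DMSO had S100A4 first, then S100A11, S100A6, S100A10, S100A9, S100A8, S100A13 and S100A12, and the replicates of no neighbouring pair overlapped. With DAC the order was S100A9, S100A4, S100A11, S100A6, S100A8, S100A10, S100A12 and S100A13, again with no overlap between neighbours. DAC-resistant cells with DMSO kept the parental order of the first 5, followed by S100A13 and S100A8, which overlapped, and S100A12. With DAC, S100A11 stood above S100A4, and S100A8 and S100A12 overlapped at the end. S100A4 itself was at ranks 54 and 53 among protein-coding genes in parental cells with DMSO and at ranks 114 and 120 in DAC-resistant cells with DAC.

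Between the first and the last of the 8 genes on chromosome 1 lie 54 other protein-coding genes, 39 of which were at 0 in all 8 libraries. Only S100A3 and TCHH among them passed the filter, and neither was called with DAC in either line or between the lines with DMSO. TCHH was called lower in DAC-resistant than in parental cells with DAC (-1.03, adjusted p = 0.00015, limma). The list of other S100 genes held 13, of which 12 are in the table and 3 passed the filter. S100B, a glial S100 protein encoded on another chromosome, was at 0.140 and 0.310 FPKM in parental cells with DMSO and at 3.20 and 3.97 FPKM with DAC, and it passed the filter only through these DAC libraries. It stayed between 0.235 and 0.442 FPKM in the 4 DAC-resistant libraries. S100P was higher in the DAC-resistant line, at 5.16 and 5.18 FPKM in parental and 15.0 and 17.0 FPKM in DAC-resistant cells with DMSO (1.46, adjusted p = 1.3e-05, limma). In parental cells S100P did not pass the DAC comparison (0.03, adjusted p = 0.79, limma).

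The list of proteins that S100 proteins bind inside and outside the cell had 12 tested genes, of which 2 were called higher with DAC in parental cells and none lower, where 6.66% of all genes were called higher, with a median difference of 0.09 beside 0.06 over all genes. ANXA1, the annexin bound by S100A11, was at 5.27 and 5.53 FPKM with DMSO and 28.1 and 26.4 FPKM with DAC (2.14, adjusted p = 1.5e-06). ANXA2, the partner of S100A10, was at 5.80 and 5.95 FPKM with DMSO and 13.2 and 13.3 FPKM with DAC (1.05, adjusted p = 9.3e-06, limma). Both also rose with DAC in DAC-resistant cells, by less than a call needs, with differences of 0.51 for ANXA1 (adjusted p = 0.0087) and 0.23 for ANXA2 (adjusted p = 0.040, limma). CACYBP, bound by S100A6, had a DAC difference of 0.01 in parental cells (adjusted p = 0.75) and of -0.34 in DAC-resistant cells (adjusted p = 0.0031, limma). With DMSO it was higher in DAC-resistant than in parental cells (0.35, adjusted p = 0.00022, limma). MYH9, the heavy chain bound by S100A4, was at 120.2 and 117 FPKM in parental and 167 and 167 FPKM in DAC-resistant cells with DMSO (0.49, adjusted p = 7.1e-06, limma), opposite in sign to S100A4.

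Of 9 tested receptor genes for extracellular S100 proteins, not counting CD68, 3 were called higher with DAC in parental cells and none lower, where 6.66% of all genes were called higher, and the median difference was 0.43 beside 0.06 over all genes. CD14, the co-receptor of TLR4, was at 1.45 and 1.58 FPKM with DMSO and 19.0 and 20.8 FPKM with DAC (3.05, adjusted p = 5.4e-06, limma). LY96, which encodes the MD-2 subunit of the same receptor, differed by 2.93 (adjusted p = 9.6e-06) and the fatty acid carrier CD36 by 1.58 (adjusted p = 3.0e-06, limma). None of these 3 was called with DAC in DAC-resistant cells, where the differences were 0.16, 0.11 and -0.05. TLR4 itself was at 2.61 and 2.40 FPKM in parental and 0.341 and 0.474 FPKM in DAC-resistant cells with DMSO (-1.32, adjusted p = 4.6e-05, limma), and CD33 was also called lower there. AGER, which encodes RAGE, was not called in any of these comparisons and had a DAC difference of -0.07 in parental cells (adjusted p = 0.63, limma). With DMSO, AGER was lower in DAC-resistant than in parental cells (-0.46, adjusted p = 0.012, limma).

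Among 11 myeloid regulators of the calprotectin genes, CEBPE was the 1 called with DAC in parental cells, where 6.66% of all genes were called higher. This late granulocytic C/EBP factor was at 1.17 and 1.33 FPKM with DMSO and 12.6 and 11.5 FPKM with DAC (2.53, adjusted p = 2.3e-05, limma). In DAC-resistant cells it was at 0.372 and 0.307 FPKM with DMSO and at 0.237 and 0.713 FPKM with DAC. Another 6 regulators passed an adjusted p under 0.05 as higher in parental cells with DAC, where 33.6% of all genes did, and 3 as lower, all by less than 1. The NADPH oxidase, the superoxide-forming enzyme to which calprotectin carries arachidonic acid, had 3 of 6 genes called higher with DAC in parental cells, where 6.66% of all genes were. NCF1 differed by 2.50 (adjusted p = 4.8e-06), CYBB by 2.42 (adjusted p = 2.6e-07) and CYBA by 1.00 (adjusted p = 4.0e-06, limma). The CYBA value (1.002) only just passed the threshold of 1. In DAC-resistant cells CYBB rose by 0.57 with DAC (adjusted p = 0.0023, limma), and of the 6 genes 2 were higher and 2 lower at an adjusted p under 0.05, where 11.2% of all genes passed in either direction, and none of them was called. Reads of NCF1 may be shared with its near-identical pseudogenes. In DAC-resistant cells with DMSO, NCF4 was the 1 of 6 called lower than in parental cells (-1.39, adjusted p = 2.0e-06, limma), where 4.28% of all genes were.

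The genes whose levels ran most like those of the 3 members with the widest range were found by Pearson's r of log2(FPKM + 1) over the 8 libraries, as a description. For S100A9 these were NRP1 (a co-receptor of VEGF and semaphorins), TMEM127 and RESF1, with r of 0.999 for each, and 112 genes had an r above 0.99. For S100A8 they were SLFN5, IL10RA and ARRB2, with 84 genes above 0.99. For S100A12 they were CD86, the lncRNA ENSG00000225964 and ERVH48-1, with 241 genes above 0.99. CD86, a costimulatory protein of antigen-presenting cells, had group means of 0.233 and 8.88 FPKM in parental cells with DMSO and DAC and 0.0938 and 0.0794 FPKM in DAC-resistant cells. The 8 libraries form 4 groups of close replicates, so such values rest on few distinct levels.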

How the data were processed

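RNA-seq values of 8 THP-1 libraries, 4 groups of 2, were analysed. The authors trimmed the reads with Cutadapt 1.9.1, aligned them to hg38 with HISAT2 2.1.0, sorted them with SAMtools 1.6 and counted them with HTSeq 0.13.5 on Ensembl genes and RepeatMasker families. The deposited values are FPKM multiplied by 1000, and the strand setting of the counting is not given in the sources used here. Values were divided by 1000, and genes that reached 1 FPKM in 2 or more libraries (14899 genes) were kept. Their log2(FPKM + 1) went into limma 3.58.1 (R 4.3.3), where a single model held the 4 group means and variances followed a trend (4 residual and 2.50 prior degrees of freedom). Benjamini-Hochberg adjustment was over all genes tested. The thresholds for a call were those of the study's volcano plots, 0.01 for limma's p before adjustment and 1 for the size of the log2 difference.

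With exon lengths of GENCODE 44, found for 60463 of the 60664 genes, whole reads were recovered from the FPKM for 89.1% to 89.8% of the values under 50 reads, within 0.01 of a read. The recovered reads on genes ran from 28717841 to 33416782 per library. In every library this number exceeded the inferred scaling total (33088198 against 31710480 in the first parental DMSO library), and the reason is not known. The recovered reads served for read counts, for intervals that cover counting error only, and for voom, an alternative. Reads whose gene overlaps another cannot be assigned with certainty. With 2 replicates per group the smallest p of an exact permutation test of a single gene is 0.333, and the limma p-values depend on variance pooled over genes.

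The fit was tested on simulated data for DAC in parental cells: of 193 genes changed by 1.5 on the log2 scale and tested among 13669 genes, 72% were called, with 12 unchanged ones. Named genes were the 8 members in every comparison, from each list the called genes (at most 4, those of the largest change), the defining partners, and the 3 genes most like each of 3 members. CD33, called members of the marker lists, S100A3 and TCHH were named after their values were seen. Leaving S100A12 out of the counts over members was decided after its values were seen. The members, lists and tests were chosen with earlier results of these data known. Alternatives were another pseudocount, other filters, TPM, quantile and upper-quartile scaling, a replicate block, unmoderated variances, adjusted p-values, only the compared libraries, voom, and leaving out each library. Promoter sequences are from RefSeq, matched by symbol for all 8 genes. Protein sequences were not used here.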

Additional observations from a re-analysis of the deposited data

Results flagged for a closer look

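The DAC effect differed between DAC-resistant and parental cells, by the interaction test of limma with Benjamini-Hochberg adjustment over all genes, for S100A8 and S100A9. The difference of the log2 effects was -4.53 for S100A8 (adjusted p = 1.7e-06) and -4.44 for S100A9 (adjusted p = 2.6e-06). For S100A12 it was -4.14, given as a description, because this gene passed the filter on low values only through the parental DAC libraries. For S100A8 and S100A9 both parental DAC libraries lay above every other library. For S100A8 and S100A12 the DAC-resistant side rests on 46 and 3 reads over its 4 libraries. Groups of 2 libraries were too small for a check of single outlying libraries.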

How the results depend on the processing

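Of 619 repeats of a member's difference under an alternative, 601 kept the direction and the side of the call, 2 lost a call, 10 gained one and 6 turned the sign. All 6 were of S100A10, whose DAC differences were near 0. With DAC in parental cells it had -0.081 with upper-quartile scaling and -0.096 without the first parental DMSO replicate (leaving out each library gave -0.096 to 0.164), and with DAC in DAC-resistant cells -0.011 without the second DAC-resistant DMSO replicate (-0.011 to 0.136). Its difference between the DAC effects was -0.10 without the second parental DMSO replicate, -0.04 without the second DAC-resistant DMSO replicate and -0.00084 without the second DAC-resistant DAC replicate (-0.102 to 0.159 over all libraries left out). The 2 lost calls were of S100A13.

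In the order DAC in parental cells, DAC in DAC-resistant cells, DAC-resistant against parental cells with DMSO, the same with DAC, and the difference between the DAC effects, 1387, 35, 1300, 2154 and 1583 genes were called. With 0.1 added in place of 1 the first 4 counts were 2097, 107, 2263 and 3249, and with voom 2205, 60, 2366 and 3345. A filter on a mean of 5 FPKM left 573, 6, 517, 908 and 721, from 7239 genes tested. TPM scaling gave 89 for DAC in DAC-resistant cells and 2036 between the lines with DMSO, and unmoderated variances gave 17 for DAC in DAC-resistant cells. Of all genes called with DAC in parental cells 71.6% were higher, against 59.2% with quantile normalization and 57.9% with the stricter filter. For the difference between the DAC effects 32.6% were higher, against 42.8% and 45.6%. Between the lines with DAC 36.6% were higher, against 46.7% with quantile normalization, 46.8% with TPM and 50.9% with the stricter filter. The cause of these shifts was not tested.

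Leaving out each library gave 1380 to 1396, 48 to 53, 1276 to 1305, 2124 to 2169 and 1556 to 1599 genes, and 4 to 4, 0 to 0, 2 to 2, 5 to 5 and 3 to 4 of the 8 members, S100A12 included. Without S100A12, chosen after seeing the data, 3, 0, 2, 4 and 2 of 7 members were called, and leaving out each library changed only the last, to 3, without the first DAC-resistant DAC replicate (S100A13). The lone library left in a group is then assumed to vary like the others. Members called with DAC in DAC-resistant cells numbered 1 with the smaller pseudocount, with TPM and with voom, S100A8 each time. The difference between the DAC effects has no fit on only the libraries compared, since it needs all 8. Replicate numbers did not pair the samples (correlations of deviations from -0.02 to 0.02 over 14899 genes). The replicate block gave 1388, 35, 1293, 2152 and 1586 called genes and the same number of called members in each comparison. Depth limits S100A12 outside the parental DAC libraries and S100A8 in DAC-resistant cells with DAC, each at 7 reads or fewer per library.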
